A study of Mus musculus with 20 samples.

Results

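Lymphatic endothelial cells (LECs) of the skin both make chemokines and carry receptors that remove them. The genes described here are 8 of the 24062 gene symbols counted in sorted dermal LECs, chosen by name as 5 chemokines (Cx3cl1, Cxcl12, Cxcl16, Ccl5 and Ccl20) and 3 atypical chemokine receptors (Ackr2, Ackr3 and Ackr4) of lymphatic endothelium. The rule that picks them uses no measured value, but the members were chosen with earlier results of these data known. The cells came from ear skin of untreated wild type mice at postnatal day 56, kept in light-dark cycles, and were sorted as live CD31+podoplanin+ cells in the morning (ZT1, 1 h after light onset), by day (ZT7), in the evening (ZT13) and at night (ZT19), where ZT is zeitgeber time in hours. The labels give the strain as C57BL/6 and the methods as C57BL/6N males. Each time point had 5 replicates, and each replicate pooled 4 ears of 2 mice, so that every n below counts pools of mice. The comparisons ask whether the RNA of these genes in LECs depends on the time of day.

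Chemokines are small secreted or membrane-bound proteins that guide leukocytes along gradients, and they act through G protein-coupled receptors on the migrating cells. Atypical chemokine receptors bind chemokines without starting G protein signalling and carry them into the cell for degradation, which lowers and shapes the gradient outside. In skin, initial lymphatic vessels attract dendritic cells and T cells, and scavenging receptors on LECs keep inflammatory and lymph-node-directed chemokines from building up on the vessel.

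All 20 libraries held the LEC markers of a written list of 10, whose summed normalized counts ranged from 55463 to 133908 (a normalized count is a read count divided by the library's effective size and multiplied by the geometric mean of these sizes). A further list of 8 blood endothelial markers summed to between 5259 and 15773. Libraries held from 4475111 to 42002363 reads on genes. Their share of the uniquely mapped reads that could be assigned to a gene or to none was 20.2% to 29.5% at ZT1, 12.7% to 62.3% at ZT7, 20.1% to 79.9% at ZT13 and 35.0% to 81.6% at ZT19. All 12 keratinocyte markers of another list had their lowest mean at ZT13. Their summed level ran from 34610 to 69808 at ZT1 and from 60145 to 176003 at ZT7, and from 11132 to 30524 at ZT13 against 91292 to 188200 at ZT19. Both properties of the libraries moved with the time point, and values from both are given again beside results below. Of 9 fibroblast markers, 7 had their lowest mean at ZT7. Their summed level ran from 6224 to 18394 at ZT1 and from 938 to 4454 at ZT7. In RNA of a whole sorted pool, fewer cells of a type and less RNA per cell cannot be told apart.

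Ackr3 and Ackr2 were the most abundant of the 8 genes. Per kb of transcript, the median normalized count over the 20 libraries was 805 for Ackr3, 537 for Ackr2, 47.4 for Ackr4, 44.5 for Cxcl12, 35.8 for Cxcl16, 28.1 for Cx3cl1, 1.89 for Ccl5 and 0.116 for Ccl20. Ackr3 stood above Ackr2 in 19 of 20 libraries, and Ackr2 above Ackr4 in 19 of 20. Neighbours further down did not separate library by library: Ackr4 exceeded Cxcl12 in 9 libraries (0 of 5 at ZT1, 4 of 5 at ZT7, 0 of 5 at ZT13 and 5 of 5 at ZT19), Cxcl12 exceeded Cxcl16 in 14, and Cxcl16 exceeded Cx3cl1 in 12. Cx3cl1 was above Ccl5 in all 20, while Ccl5 exceeded Ccl20 in 8 of 20. By mean level per kb, 97.7% of the 23685 genes with a transcript length lay below Ackr3, 96.1% below Ackr2 and 72.3% below Ackr4, against 20.2% below Ccl5. The mean places Ccl20 far higher than its median does, at 38.6 per kb, because 63.5% of its summed level came from 1 library of ZT19.

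**Figure D1:**
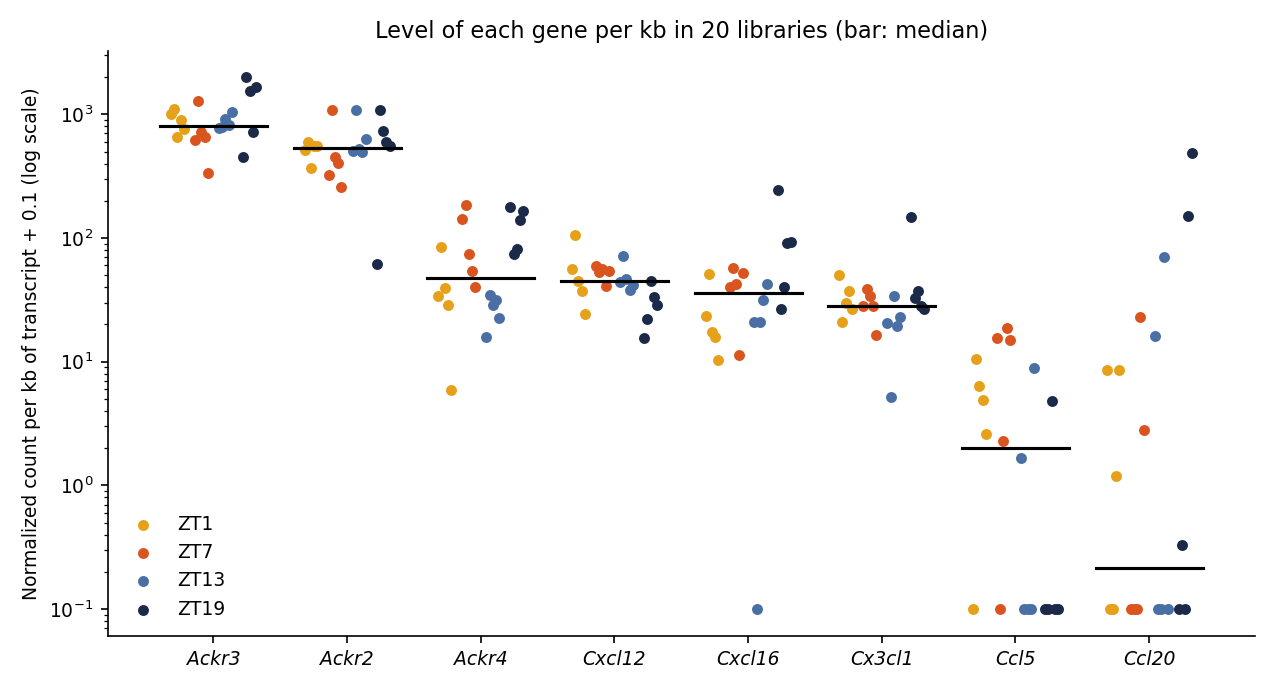
Normalized count per kb of transcript, plus 0.1 and on a log scale, of each gene in each of the 20 libraries (points, coloured by time point), with the median as a bar and genes in order of their medians. Ackr3 and Ackr2 lie above the other genes in nearly all libraries, and Ccl5 and Ccl20 have 9 and 10 libraries at 0.

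The spread over libraries differed as widely as the levels. The coefficient of variation over the 20 libraries was 43.2% for Cxcl12, 43.9% for Ackr3 and 46.5% for Ackr2, and 79.0% for Ackr4, 83.5% for Cx3cl1, 113% for Cxcl16, 133% for Ccl5 and 291% for Ccl20. Of the 8 genes, 7 passed edgeR's filter on low counts and were tested. Ccl5 did not pass, with 97 reads in all.

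The first question was whether any of the 7 differed among the 4 time points or followed a 24-h curve. At an adjusted p under 0.05, edgeR's quasi-likelihood test called 0 of the 7 among the 4 time points, where 0.422% of the 19209 genes tested were called, and 0 of the 7 for a 24-h rhythm, where 0.0312% were called. Before adjustment, 3 of them (Cxcl16, Ccl20 and Ackr4) had a p no larger than 0.05 in the first test, beside 15.7% of all genes, and 1 (Ccl20) in the rhythm test, beside 9.23%. Ackr4 lay nearest to the threshold, with an edgeR adjusted p of 0.0534 in the first test, and DESeq2 called it and no other of the 7 there, where it called 2.96% of all genes. DESeq2 called 0 of the 7 for the rhythm, beside 0.390% of all genes. The time course of each gene is shown in the plot of normalized counts by time point.

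**Figure D2:**
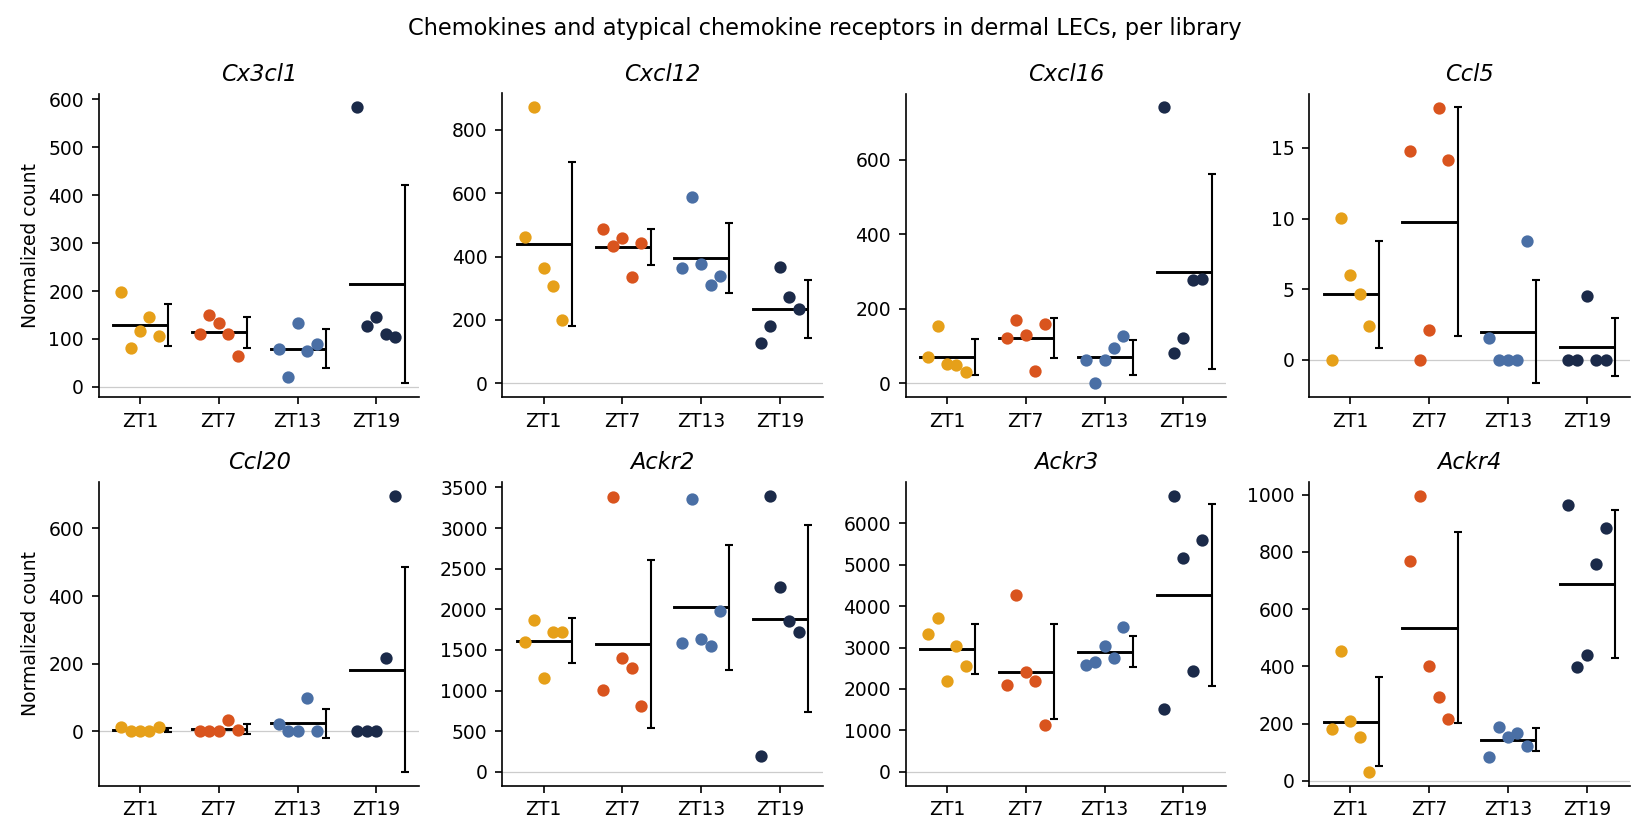
Normalized counts of the 8 genes at ZT1, ZT7, ZT13 and ZT19, with 1 point per library, horizontal bars at the mean of 5 replicates and vertical bars of 1 SD drawn at their right. The Ackr4 points of ZT13, between 84.5 and 187, all lie below those of ZT7 and of ZT19.

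Between ZT13 and ZT19, edgeR called 1 of the 7 genes, Ackr4, which was higher at night, where 0.588% of all genes were called. The median log2 fold change of the 7 was 1.43, where all genes tested had a median of -0.22. The all-gene median was -0.39 from ZT1 to ZT19 and -0.20 from ZT7 to ZT19, and the fold changes below are not corrected for it. Before adjustment, 3 of the 7 genes had a p no larger than 0.05 between ZT13 and ZT19 (Cx3cl1, Cxcl16 and Ackr4, all higher at ZT19), beside 19.2% of all genes.

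In the other pairs edgeR called 0 of the 7 genes, where the share of all genes called was 0.00521% between ZT1 and ZT7, 0.0208% between ZT1 and ZT13, 0.0156% between ZT1 and ZT19, 0.0937% between ZT7 and ZT13 and 0.0156% between ZT7 and ZT19. DESeq2 called more of all genes, and with them Ackr4 between ZT1 and ZT19 (10.3% of all genes called) and between ZT7 and ZT13 (0.416%), and Cxcl12 between ZT7 and ZT19 (10.8%). An unadjusted p no larger than 0.05 was found for 1 gene between ZT1 and ZT7 (Ackr4, higher at ZT7, beside 4.97% of all genes) and for 1 between ZT7 and ZT13 (Ackr4, lower at ZT13, beside 2.59%). Between ZT1 and ZT13 it was found for 0 (beside 5.37%). Between ZT1 and ZT19 it was found for 4, with Cxcl16, Ccl20 and Ackr4 higher and Cxcl12 lower at ZT19 (beside 21.6%). Between ZT7 and ZT19 it was found for 3, with Ccl20 and Ackr3 higher and Cxcl12 lower at ZT19 (beside 19.7%). The 6 pairs share their libraries, so these counts do not stand apart from each other.

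**Figure D3:**
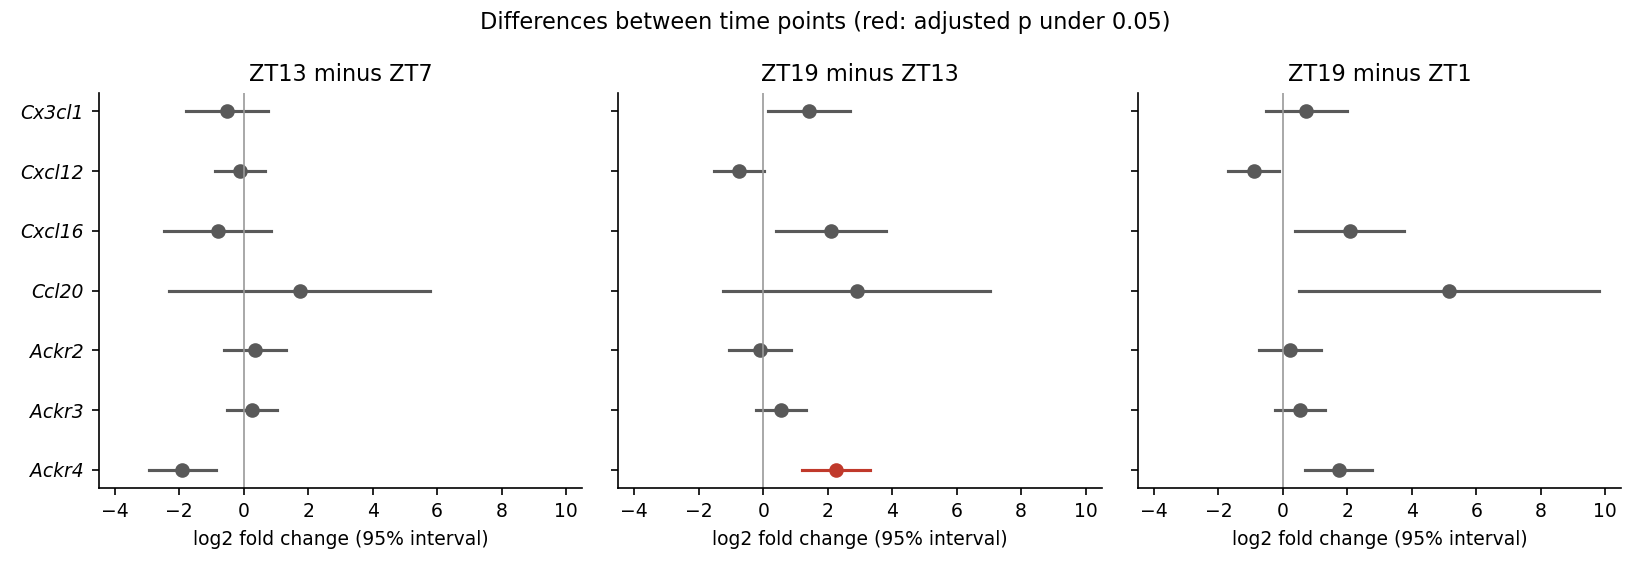
Log2 fold changes (points) with 95% intervals (lines) from edgeR's fit for the 7 genes tested, in 3 of the 6 pairs of time points, with values to the right of 0 higher at the later-named time. The Ackr4 difference between ZT13 and ZT19, 2.26, is the one drawn in red for an adjusted p under 0.05, and the intervals of Ccl20 are the widest.

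Ackr4 (formerly Ccrl1) encodes the scavenger of CCL19, CCL21 and CCL25, the chemokines that guide CCR7- and CCR9-bearing cells, and it is found on lymphatic endothelium and on keratinocytes. It lies on the minus strand of chromosome 9 of GRCm38 from 104084157 to 104126933. The RefSeq promoter is shown because Ackr4 was the one called gene, with that of Ackr3, the most abundant one, for comparison. Both run from 250 bases before to 50 bases after the RefSeq start site (GRCm38.p6, chr9:104126594-104126893, minus strand, and chr1:90203730-90204029, plus strand), 5′ to 3′, with matches to the motifs searched in capitals.
Ackr4: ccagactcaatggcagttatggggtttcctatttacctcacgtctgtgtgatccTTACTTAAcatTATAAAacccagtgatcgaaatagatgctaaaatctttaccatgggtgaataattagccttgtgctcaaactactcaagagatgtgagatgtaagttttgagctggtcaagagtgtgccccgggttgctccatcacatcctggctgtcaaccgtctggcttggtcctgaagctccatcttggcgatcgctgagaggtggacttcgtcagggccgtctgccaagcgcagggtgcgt
Ackr3: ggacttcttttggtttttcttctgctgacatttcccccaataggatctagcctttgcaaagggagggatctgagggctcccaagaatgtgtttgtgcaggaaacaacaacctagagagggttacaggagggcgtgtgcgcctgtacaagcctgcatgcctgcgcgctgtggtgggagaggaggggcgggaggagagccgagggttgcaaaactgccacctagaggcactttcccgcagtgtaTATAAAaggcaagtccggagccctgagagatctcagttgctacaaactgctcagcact
The motifs, read on both strands, were the E-box CACGTG that CLOCK and BMAL1 bind, the D-box core TTANGNAA of the PAR bZIP factors, the nuclear receptor core AGGTCA and the TATA motif TATAAA. RefSeq's table held promoters of 6 of the 8 genes, those of Cx3cl1, Cxcl12, Ccl20, Ackr2, Ackr3 and Ackr4, but not of Cxcl16 and Ccl5. None of the 6 held the E-box, which 7.15% of the 32851 promoters in the table hold. The D-box core was in that of Ackr4 alone, on the opposite strand and starting 196 bases before the start site, and in 11.5% of all promoters. AGGTCA was in that of Ccl20 alone and in 16.3% of all, and TATAAA was in those of Cx3cl1, Ackr3 and Ackr4 and in 13.6% of all. Distances are counted from the RefSeq start site, which for Ackr3 is the start of the GENCODE gene and for Ackr4 lies 290 bases inside the GENCODE span, so that the whole Ackr4 window is within that span. In Ackr3 the TATA motif begins 8 bases and in Ackr4 185 bases before the start site. A match gives the letters in this window and says nothing of what binds there.

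The Ackr4 normalized counts at ZT13 were 84.5, 187, 155, 168 and 121 in replicates 1 to 5. At ZT19 they were 963, 397, 439, 756 and 882. All 5 libraries of ZT19 stood above all 5 of ZT13, which held for 1.87% of all genes tested. The means were 143 ± 40.6 (SD, n = 5) and 687 ± 257, a log2 fold change of 2.26 (SE 0.51, 95% interval from 1.21 to 3.32; edgeR's quasi-likelihood test, adjusted p = 0.0328). At ZT7 the Ackr4 counts were 768, 996, 400, 293 and 217 (535 ± 333), and again none overlapped with ZT13, a pattern of 0.750% of all genes for a lower level at ZT13. The log2 fold change from ZT7 to ZT13 was -1.90 (SE 0.51) and missed the threshold in edgeR (adjusted p = 0.259) but not in DESeq2 (adjusted p = 0.0270). With the keratinocyte score described below as a covariate it was -0.99 (edgeR's unadjusted p = 0.269). At ZT1 they were 182, 455, 211, 153 and 31.1 (206 ± 155), with replicate 5 the lowest of all 20 libraries. ZT19 lay above ZT1 by 1.73 on the log2 scale (SE 0.50, edgeR's adjusted p = 0.0930), and by 1.12 with the reads' share on genes as a covariate (adjusted p = 0.567), and 1 library of ZT1 exceeded 2 of ZT19. The means at ZT7 and ZT19 were thus above those at ZT1 and ZT13. From ZT1 to ZT7 the log2 fold change was 1.37 (edgeR's adjusted p = 0.836). It was 0.57 with a fibroblast marker score as a covariate (edgeR's adjusted p = 0.722). The fitted 24-h curve rose and fell by 0.32 in log2 units around its mean (edgeR's adjusted p = 0.879).

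Within a library, Ackr4 can be set against the more abundant receptors without any scaling between libraries. Per kb, the median ratio of Ackr3 to Ackr4 was 29.5 in the ZT1 libraries (from 13.1 to 132) and 8.33 in those of ZT7 (from 4.37 to 12). It was 31.6 at ZT13 (from 22.7 to 49) and 10.2 at ZT19 (from 2.51 to 27). The ratios of ZT7 and ZT13 did not overlap, and those of ZT13 and ZT19 did. The ratio of Ackr2 to Ackr4 ran from 15.8 to 32.3 at ZT13. This was above each of the ratios at ZT7 (from 2.26 to 7.49) and at ZT19 (from 0.340 to 14.7). How often ratios of other genes separate so was not counted. Nor do the ratios take account of the keratinocyte marker sum, at most 30524 at ZT13. That sum was at least 60145 at ZT7 and at least 91292 at ZT19.

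Of the 12 keratinocyte markers, 5 were called among the 4 time points (Krt5, Krt14, Krt15, Perp and Sfn), all 5 of them also higher at ZT19 than at ZT13, as Ackr4 was, and every one of the 12 had counts in at least 19 of 20 libraries. Krt14, the keratin of the basal epidermis, rose from 7249 ± 3617 normalized counts at ZT13 to 52650 ± 15221 at ZT19, by 2.86 on the log2 scale (SE 0.49, edgeR's adjusted p = 0.00368). The summed marker levels of ZT13 and ZT19 did not overlap either (at most 30524 against at least 91292). With a keratinocyte marker score as a covariate, the Ackr4 log2 fold change from ZT13 to ZT19 was 1.38 (edgeR's adjusted p = 0.340), and that fit called 0 of all genes tested in this pair. With the log2 odds of a read falling on a gene as a covariate it was 1.77 (adjusted p = 0.171), and among only the libraries with under 60% of reads on genes, an alternative chosen after seeing the data, it was 2.05 (adjusted p = 0.305). With a fibroblast score, also added later, it was 2.22 (adjusted p = 0.0185), where the summed fibroblast markers ran from 735 to 9745 at ZT13 and from 1211 to 12955 at ZT19. Without ZT13 replicate 1, 2, 3 or 4, or ZT19 replicate 1 or 5, the adjusted p rose above 0.05, to between 0.0553 and 0.0987, while the log2 fold change over the 10 fits that each left out a library of this pair stayed between 2.12 and 2.41. The sort gate asked for both CD31 and podoplanin. As the marker sum and the time point move together, RNA of keratinocytes and of LECs cannot be told apart in the Ackr4 difference.

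**Figure D4:**
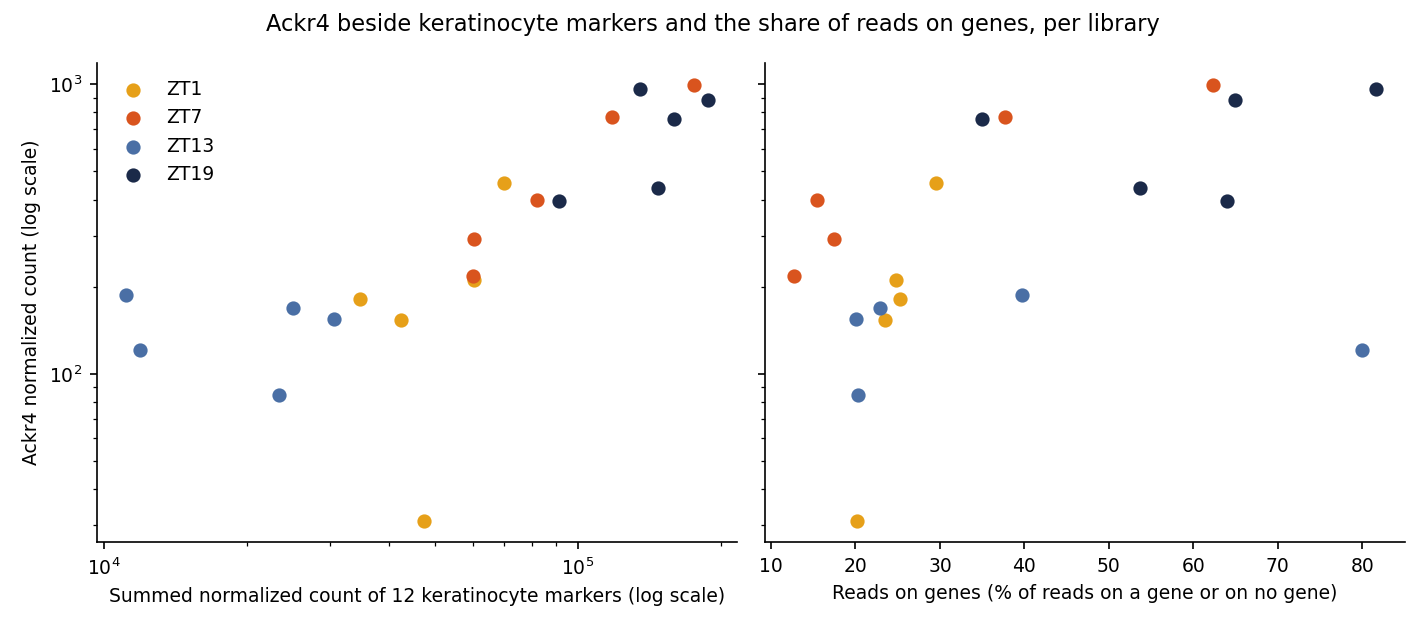
Ackr4 normalized count of each library (log scale) against the summed normalized count of 12 keratinocyte markers (left, log scale) and against the share of reads on genes in percent (right), coloured by time point. The ZT13 libraries have the lowest marker sums, at most 30524, whereas on the right they span from 20.1% to 79.9%.

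Acad11, an acyl-CoA dehydrogenase gene on the opposite strand, spans all of Ackr4 and shares 479 exon bases with it. Whether counting used strand is not given in the sources used here, and the cDNA kit does not mark it, so reads in that stretch cannot be assigned. Acad11 had means of 641, 321, 245 and 446 normalized counts in the order ZT1, ZT7, ZT13, ZT19, with its highest at ZT1, and its log2 fold change from ZT13 to ZT19 was 0.87 (SE 0.49, edgeR's adjusted p = 0.334).

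Ackr3 (CXCR7) binds CXCL12 and CXCL11 as well as adrenomedullin, and takes CXCL12 out of the tissue. It lies on chromosome 1 from 90203980 to 90216751. Its normalized counts at ZT7 were 2089, 4263, 2410, 2189 and 1127 (2416 ± 1143, SD, n = 5), and at ZT19 1507, 6661, 5152, 2425 and 5603 (4269 ± 2197). At ZT19, 3 libraries lay above all those of the other time points and 2 lay among them. From ZT7 to ZT19 the log2 fold change was 0.82 (SE 0.38, 95% interval from 0.04 to 1.60), with an unadjusted p of 0.0392 and an adjusted p of 0.230 in edgeR's test, and it was 0.53 with the reads' share on genes as a covariate (adjusted p = 0.761). The ZT1 and ZT13 means were 2960 ± 605 and 2902 ± 379, and their log2 difference of -0.03 had an interval from -0.80 to 0.74. Scaled to 5 LEC markers in place of all genes, Ackr3 was called between ZT1 and ZT19, together with Cxcl16 and Ackr4, and so were 13.9% of all genes.

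Ackr2 (D6), the scavenger of inflammatory CC chemokines such as CCL2 and CCL5, gave the highest p among the 4 time points of the 7 genes. It lies on chromosome 9 from 121898355 to 121911074, and its means (SD, n = 5) were 1616 ± 273 for ZT1, 1577 ± 1036 for ZT7, 2025 ± 767 for ZT13 and 1886 ± 1155 for ZT19, with edgeR's adjusted p = 0.941. No pair differed by more than 0.36 on the log2 scale, and the intervals of the 6 pairs reached from -1.06 to 1.31. The ZT19 counts were 191, 3397, 2275, 1851 and 1717, and replicate 1 of ZT19 was the lowest of all 20 libraries, the next being 810 at ZT7. Ackr2 and Ackr3 are compared by their ratio per kb within a library, which had medians of 1.76, 1.60, 1.65 and 2.11 in the order ZT1 to ZT19, with 0.733 (ZT13 replicate 2) and 7.38 (ZT19 replicate 1) as the extremes.

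Cxcl12, the ligand of CXCR4 and ACKR3 that retains and guides CXCR4-bearing leukocytes, had its lowest mean at night, short of the threshold in edgeR. It lies on chromosome 6 from 117168535 to 117181367. Its normalized counts at ZT19 were 126, 180, 366, 271 and 233 (235 ± 91.1, SD, n = 5), against 487, 433, 459, 336 and 441 at ZT7 (431 ± 57.2). Of the 5 ZT19 libraries, 4 lay below all of ZT7, and replicate 3 overlapped. The log2 fold change from ZT7 to ZT19 was -0.88 (SE 0.38), with an adjusted p of 0.209 in edgeR and 0.0328 in DESeq2, which called 10.8% of all genes in that pair. From ZT1, at 441 ± 259, the change was -0.91 (SE 0.38, edgeR's adjusted p = 0.165), and -0.32 when scaled to LEC markers. It was -0.51 without ZT1 replicate 2, the highest library (adjusted p = 0.442). Among only the libraries with under 60% of reads on genes, the change to ZT19 was -0.46 from ZT1 and -0.37 from ZT7 (adjusted p = 0.752 and 0.726). ZT13 had 395 ± 110. Per kb, the ratio of Cxcl12 to its scavenger Ackr3 had medians of 0.0567, 0.0780, 0.0507 and 0.0291 in the order ZT1 to ZT19, and its ranges at ZT7 (from 0.0416 to 0.160) and ZT19 (from 0.0111 to 0.0457) overlapped.

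Cx3cl1 (fractalkine) and Cxcl16 are the chemokines made as membrane proteins on a mucin stalk, which the proteases ADAM10 and ADAM17 can release. Cx3cl1, on chromosome 8 from 94772009 to 94782427, is the ligand of CX3CR1 on dendritic cells and monocytes. Its ZT19 normalized counts were 583, 128, 146, 110 and 105, and those of ZT13 were 80.0, 20.1, 133, 75.7 and 89.6. Replicate 1 of ZT19 stood far above the others, which lay within the range of ZT1 (from 82.2 to 198). The log2 fold change from ZT13 to ZT19 was 1.43 (SE 0.62, edgeR's adjusted p = 0.205), and 0.62 without ZT19 replicate 1 (adjusted p = 0.622). It was 0.94 with the reads' share on genes as a covariate (adjusted p = 0.630) and 0.80 among the libraries under 60% (adjusted p = 0.637). The means at ZT1 and ZT7 were 129 ± 44.5 and 114 ± 32.5.

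Cxcl16, the ligand of CXCR6, lies on the minus strand of chromosome 11 from 70453983 to 70459984. Its normalized counts at ZT19 were 741, 80.3, 122, 277 and 281 (300.3 ± 262.5, SD, n = 5). At ZT1 they were 70.4, 154, 52.6, 48.0 and 31.1 (71.3 ± 48.5), and at ZT13 63.4, 0, 63.5, 94.9 and 127 (69.8 ± 47.2). In 3 libraries of ZT19 the level was above every library of the other time points, whose highest was 171 at ZT7, and in the other 2 it was not. The log2 fold change from ZT13 to ZT19 was 2.10 (SE 0.83, edgeR's adjusted p = 0.162), and 1.44 without ZT19 replicate 1 (adjusted p = 0.390). From ZT1 to ZT19 it was 2.07 (SE 0.83, adjusted p = 0.147), and 2.90 when scaled to LEC markers, where it passed (adjusted p = 0.0279) along with 13.9% of all genes. The same change was 1.41 without ZT19 replicate 1 (adjusted p = 0.379), 1.402 with the reads' share on genes as a covariate (adjusted p = 0.709) and 1.49 among the libraries under 60% (adjusted p = 0.601). Cxcl16 shares 552 exon bases with Zmynd15 on the opposite strand, whose means of 96.2, 30.6, 36.6 and 24.2 from ZT1 to ZT19 were lowest at ZT19.

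Replicate 1 of ZT19 stood apart in several of these genes at once. It held the highest Cx3cl1 and Cxcl16 and the lowest Ackr2 and Cxcl12 of all 20 libraries. It also had the largest share of reads on genes, 81.6%, and the fewest genes with a count, 12477, while its LEC marker sum of 80448 was the lowest at ZT19. Without it, edgeR called 0 of the 7 genes between ZT13 and ZT19, as the adjusted p of Ackr4 was then 0.0659, and it called 0.525% of all genes.

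Ccl20, the ligand of CCR6 that epithelia make on inflammation, was present in some pools only. It lies on chromosome 1 from 83116766 to 83119167. It had counts in 10 of 20 libraries, and the highest normalized counts were 696 (ZT19 replicate 5), 215 (ZT19 replicate 4) and 99.1 (ZT13 replicate 4), while the other 3 libraries of ZT19 had 0, 0.330 and 0. The next highest were 32.7 at ZT7 and 22.6 at ZT13, and ZT1 had counts in 3 libraries. A count of 0 allows up to 3 reads, which is 0.670 CPM (counts scaled to the reads on genes) in the shallowest library and 0.0714 in the deepest, and covers counting error only. Its fitted log2 fold change from ZT1 to ZT19 was 5.15 with an interval from 0.50 to 9.81 (edgeR's adjusted p = 0.183), and 3.39 without ZT19 replicate 5 (adjusted p = 0.447). It was 0.54 with the keratinocyte score as a covariate (adjusted p = 0.987) and 10.48 with the share of reads on genes (adjusted p = 0.425). From ZT7 to ZT19 it was 4.64 (adjusted p = 0.242), with 2.004 and 10.7 under the same covariates, 7.47 without ZT7 replicate 4 and 2.88 without ZT19 replicate 5. The 3 highest keratinocyte marker sums of all libraries were 188200 in ZT19 replicate 5, 176003 in ZT7 replicate 2, which had no Ccl20 count, and 159421 in ZT19 replicate 4. Which cells the Ccl20 reads came from was not tested.

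Ccl5 (RANTES), a chemokine of T and NK cells that ACKR2 scavenges, was near the limit of detection. It lies on chromosome 11 from 83525778 to 83530518. Its 97 reads came from 11 libraries, 39 of them from the deepest one, ZT13 replicate 5. Normalized counts reached 14.7, 17.8 and 14.1 in 3 libraries of ZT7, and 4 of the 5 ZT19 libraries and 3 of the 5 ZT13 libraries had none. The summed level of 8 T cell markers ran from 149 to 338 at ZT1, from 14.9 to 449 at ZT7, from 0 to 296 at ZT13 and from 0 to 166 at ZT19. The ZT13 library with 39 Ccl5 reads had a T cell sum of 0, and the 3 libraries of ZT13 without a Ccl5 read had sums of 199, 177 and 203. By time point, the mean normalized count of Ccl5 was highest at ZT7, 9.77 ± 8.11 (SD, n = 5), and lowest at ZT19, 0.904 ± 2.02, and of the 8 T cell markers 7 had their highest mean at ZT7 and 8 their lowest at ZT19. The markers' part in the Ccl5 counts was not tested.

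The remaining genes of these pathways gave few calls. Over all genes, edgeR's test among time points gave an unadjusted p no larger than 0.05 for 15.7% and called 0.422%, DESeq2 called 2.96%, and the rhythm test gave such an unadjusted p for 9.23% (DESeq2 called 0.390%). Of 35 other chemokine genes, 22 passed the filter, and edgeR called 0 of them for a difference among time points (8 before adjustment, and 1, Ccl9, by DESeq2) or a rhythm (2 before adjustment, 0 by DESeq2). The 3 with the highest mean level per kb were Ccl27a (660 per kb), the skin chemokine of keratinocytes, Cxcl14 (118) and Ccl7 (112). Ccl27a was above Ackr2 by its mean per kb, with 1569 ± 2063 normalized counts (SD, n = 20). Ccl7 had 287 ± 356 normalized counts at ZT19 (SD, n = 5) and means from 11.8 to 45.8 at the other time points. Ccl21a, Ccl21b and Ccl21c, the near-identical genes for the main LEC chemokine and ligand of CCR7, had 0 counts in every library, and reads that align to several places were set aside by the counting, so nothing can be said of their level. Of the ligands of ACKR4, Ccl19 was at a mean of 43.6 and Ccl25 at 43.8 normalized counts (edgeR's adjusted p = 0.889 and 0.706).

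The signalling chemokine receptors with Ackr1, the blood vessel scavenger, were scarce. Of 20 genes, 19 were tested, and edgeR called 0 of them among time points (6 before adjustment, beside 15.7% of all genes, and 0 by DESeq2). All 20 had their lowest mean at ZT19, where the median log2 fold change from ZT13 of the 19 was -2.87 beside -0.22 for all genes. All 8 T cell markers (median -3.86) and all 7 macrophage markers (median -2.39 of the 6 tested) also had their lowest mean at ZT19. So did 4 of 5 mast cell markers, 4 of 7 dendritic and Langerhans cell markers and 20 of the 35 other chemokine genes. The dendritic list's sum had its highest mean at ZT19, 942 normalized counts. The share of all genes lowest at ZT19 was not counted. Libraries of ZT19 held counts for 12477 to 18768 genes and up to 81.6% of reads on genes. The part of these in the receptors' levels was not tested. By mean level per kb, Ccr4, Cxcr4 and Cxcr5 were the most abundant, at 30.5, 29.5 and 17.0. At ZT1, Ccr4 had 211 ± 332 and Cxcr4 129 ± 169 normalized counts (SD, n = 5). Their means at the other time points ran from 34.3 to 80.1 and from 13.3 to 48.8. Cxcr4, the signalling partner of Cxcl12, fell short of Ackr3 in mean level per kb, 29.5 against 937.

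Of 12 genes for sheddases and receptor internalization, edgeR called 0 among time points (1 before adjustment, beside 15.7% of all genes, and 0 by DESeq2, beside 2.96%). Rab11a, a recycling endosome gene (1925 per kb), Adam10 (376 per kb) and Dnm2, the dynamin of endocytosis (318 per kb), were the most abundant. Of 8 genes for other ligands of ACKR3 and their receptors, 2 of which (Ccl19 and Cxcl11) are also among the chemokines above, edgeR called 0. Before adjustment 2 had a p no larger than 0.05, Calcrl and Cxcl11, the latter counted in both lists, and DESeq2 called 1, Calcrl. For the 24-h rhythm edgeR called 0 of the 8 (1 before adjustment, Calcrl). DESeq2 called 1 of them for the rhythm, beside 0.390% of all genes. Mif (3652 per kb), Adm, which encodes adrenomedullin (2351), and Ramp2 (1783), a subunit of its receptor, stood highest. Of 11 genes for glycosaminoglycan anchors, which hold chemokines on the cell surface, 1 was called among time points, Sdc4, beside 0.422% of all genes. This syndecan had mean normalized counts of 1886, 1370, 835 and 2426 from ZT1 to ZT19 (edgeR's adjusted p = 0.0476), a rise of 1.54 on the log2 scale from ZT13 to ZT19 (SE 0.30, adjusted p = 0.0108). In the same pair the keratinocyte marker sum went from at most 30524 to at least 91292. With the keratinocyte score as a covariate the Sdc4 change was 0.81 (edgeR's adjusted p = 0.292), and with the share of reads on genes 1.66 (adjusted p = 0.0178). Sdc1 and Sdc3 were the other 2 of the 3 most abundant anchors per kb and were not called.

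The genes whose log2 levels were most like each member over the 20 libraries, among 12562 genes with a mean normalized count of at least 50, are given as a description, since the libraries share time points and depth. For Ackr4 they were Pex7 (Pearson's r = 0.923), Ly6d (0.874) and Calm5 (0.869), the last 2 being genes of epidermal keratinocytes. Ackr3 was most like Rhoa (0.869), Ucp2 (0.841) and Lmcd1 (0.832), and Ackr2 like Rtn4rl1 (0.928), Mboat7 (0.896) and Igfbp4 (0.886). Cxcl12 was most like Card6 (0.899), Trim21 (0.837) and Ralgapa1 (0.821), Cxcl16 like Fuca2 (0.897), Mks1 (0.888) and Plbd1 (0.882), and Cx3cl1 like Fgfr2 (0.823), Hace1 (0.819) and Ppif (0.819). Within time points, r with Ackr4 was 0.813 for Pex7, 0.71 for Ly6d and 0.756 for Calm5, and over all 18 pairs it ran from 0.700 to 0.948.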

How the data were processed

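The authors amplified full-length cDNA from RNA of sorted LECs (SMART-Seq, Nextera XT) and deposited raw counts per gene symbol. The submitters' processing notes name STAR, HTSeq 1.0.0, DESeq2 2.11.40.6 and the build mm10. Annotation and strand setting are not given in the sources used here. Libraries were grouped by the time point and replicate number in their labels. Reads without molecular identifiers are not independent molecules.

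The main tool was edgeR 4.0.16 in R 4.3.3, with TMM scaling, its default low-count filter for groups of time points, and its quasi-likelihood test on all 20 libraries. The 19209 genes that passed were compared among the 4 time points, for cosine and sine terms of 24 h and between 6 pairs, with Benjamini-Hochberg adjustment and a threshold of 0.05. Lengths and positions came from GENCODE M21 (98.4% of symbols matched, 935 by an older symbol) and promoters from RefSeq's GRCm38.p6 table. Log2 levels used a pseudocount of 1. The fits were tested on simulated counts. The members and gene lists were chosen with earlier results of these data known. Named are all 8 members, the 3 genes of each pathway list with the highest mean level per kb and those called. Also named are the 3 genes most like each member with counts in at least 15 libraries. Krt14, Ccl19, Ccl25, Ccl21a to c, Acad11 and Zmynd15 were named after their values were seen. Alternatives were DESeq2 1.42.0, other scalings and filters, covariates, a replicate block and leaving out each library.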

Additional observations from a re-analysis of the deposited data

Results flagged for a closer look

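In 5 of the 32 groups of 5 libraries (8 genes at 4 time points), 1 library's gap to its nearest neighbour on the log2 scale, as a share of the group's range, exceeded Dixon's 95% critical value for 5 samples. Chance gives about 1.6 such groups. The gap was 0.808 for Cx3cl1 at ZT19 (replicate 1 higher, 583 normalized counts) and 0.763 for Ackr2 at ZT19 (replicate 1 lower, 191). It was 0.858 for Cxcl16 at ZT13 (replicate 2 with no read, in a library with 3171 reads on Ackr2) and 0.787 for Cxcl16 at ZT7 (replicate 4 lower, 34.2). For Ccl5 at ZT19 it was 1, as replicate 3 had 7 reads and the others none.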

How the results depend on the processing

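The 12 fold changes between pairs with an unadjusted p no larger than 0.05 were recomputed, and none changed direction in the alternatives that could give a value (13, or 11 for Ccl20) or in the 10 fits that each left out a library of the pair. For the 24-h rhythm, 0 members were called in 12 alternatives and 20 fits without 1 library. With the replicate number as a block, the counts of called members stayed the same in each comparison. Ackr4 then kept an edgeR adjusted p of 0.0419 between ZT13 and ZT19. Deviations of same-numbered libraries from their time points correlated over 0.1 in 12 of 30 pairs (median 0.0788). Of 20 libraries, 5 correlated best with their own number. The share of reads on genes can also enter these correlations, so they cannot settle whether the numbers pair the samples. Among the 4 time points 0 members became 1, Ackr4, with DESeq2 (2.96% of all genes called), total counts (0.479%), LEC marker scaling (6.89%), no filter (0.429%), at least 1 CPM in 10 libraries (0.747%) or a fibroblast covariate (1.42%), against 0.422% as reported, and ranged from 0 to 1 as libraries were left out (without ZT1 replicate 2 or 5 or ZT7 replicate 5). DESeq2 also gave 1 between ZT1 and ZT19 and between ZT7 and ZT13 (Ackr4), where it called 10.3% and 0.416% of all genes, and 1 between ZT7 and ZT19 (Cxcl12, 10.8%). LEC marker scaling gave 3 between ZT1 and ZT19, where it called 13.9%. With a fibroblast covariate the Ackr4 change from ZT1 to ZT7 was 0.57 in place of 1.37. Between ZT13 and ZT19, 1 became 0 with the share of reads on genes (0.281% of all genes called) or the keratinocyte score (0%) as a covariate and with only libraries under 60% on genes (0.202%), against 0.588% as reported, and ranged from 0 to 1 as libraries were left out. The cause was not tested, and some of these fits also had fewer libraries.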
